A study of Mus musculus with 8 samples.

Results

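The genes described here are 8 that encode costimulatory receptors of T cells and their adaptors: Tnfrsf9 (CD137), Tnfrsf4 (OX40), Tnfrsf18 (GITR), Icos, Cd28, Cd27, Traf1 and Traf2. They were chosen by name, as the rows of the deposited RNA sequencing tables with these symbols. All 8 had a row in both systems, among 12665 genes in vivo and 12133 genes in vitro. The cells were mouse thymocytes in 4 groups of 2 libraries each. The in vivo KO group held thymocytes of Bcl6fl/fl Cd4cre animals sorted directly from the organ by a gate that takes CD5+ TCRb+ cells and leaves out those with CD4 or CD8, and the in vivo WT group held the same gate from Bcl6fl/fl animals without the Cre label. The in vitro KO group held sorted CD4+CD8+ thymocytes of the Bcl6fl/fl Cd4cre genotype that were stimulated on plates coated with antibodies to CD3 and CD28 (8 µg/ml of each) for 24 h, and from which the cells negative for CD4 and CD8 (DN) were then sorted. The in vitro WT group was made in the same way from Bcl6fl/fl cells. All 4 groups therefore carry the loxP-flanked Bcl6 alleles, and Cd4-driven Cre acts from the double-positive stage on in any cell that has used the Cd4 promoter, so deletion is not limited to the sorted cells. Nothing in the labels gives age, sex, strain background or pooling of animals. They also leave unsaid whether replicates are separate animals, so the p-values measure the spread between these libraries, which may be technical.

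A T cell needs a second signal besides its antigen receptor. CD28 and ICOS are immunoglobulin family receptors whose tails bind phosphoinositide 3-kinase, and CD28 also feeds NF-kB through protein kinase C theta. CD137, OX40, GITR and CD27 belong to the tumour necrosis factor receptor family, have no kinase of their own, and recruit TRAF adaptors such as TRAF1 and TRAF2, which lead to NF-kB and survival signals. Strong antigen receptor signals induce CD137, OX40 and GITR, and in the thymus these receptors mark cells that have met agonist ligands. BCL6 is a transcriptional repressor best known in germinal centre B cells and follicular helper T cells, where ICOS signals sustain it.

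Total counts ranged from 14754440 to 23975636 per library, and counts of the 8 genes from 111 to 20240. Bcl6 itself had 8.81 and 14.4 FPKM (fragments per kilobase of transcript, scaled to library size) in the in vivo libraries labelled KO against 11.5 and 13.9 FPKM in those labelled WT, and 64.6 and 61.0 FPKM in the in vitro libraries labelled KO against 24.9 and 21.9 FPKM in those labelled WT. In vitro the libraries labelled KO thus had more Bcl6 transcript than those labelled WT. Counts over the whole gene pool deleted and retained exons, so they do not check the genotype, and groups are called by their labels, KO-labelled and WT-labelled, throughout. Genes of the T cell receptor complex and its kinases were abundant in every library: the 8 listed genes among Cd3d, Cd3e, Cd3g, Cd247, Cd5, Lck, Zap70 and Lat summed to between 1121.55 and 1520.33 FPKM. Transcript of Cd4, whose protein the gate excludes, was 22.8 and 78.4 FPKM in KO-labelled and 26.8 and 55.0 FPKM in WT-labelled cells in vivo.

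Among the 8 genes, Cd27 had the highest level per length in all 4 groups. Its rank by mean FPKM among all listed genes was 160 in KO-labelled and 126 in WT-labelled cells in vivo, and 83 and 88 in vitro. Below it the order differed between systems. In KO-labelled cells in vivo the order of mean FPKM was Cd27, Icos, Cd28, Tnfrsf18, Tnfrsf4, Tnfrsf9, Traf2 and Traf1, and neither the ranges of Icos and Cd28, nor those of Tnfrsf18 and Tnfrsf4, nor those of Tnfrsf4 and Tnfrsf9 were apart. WT-labelled cells in vivo had Tnfrsf9 below Cd28 and above Tnfrsf18 and Tnfrsf4, and no neighbours overlapped. In vitro both groups had the order Cd27, Tnfrsf9, Cd28, Icos, Tnfrsf18, Traf2, Tnfrsf4 and Traf1, with no overlap between neighbours. The tables of the 2 systems were scaled separately and their libraries were made by different providers, so levels were not tested between systems.

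**Figure D1:**
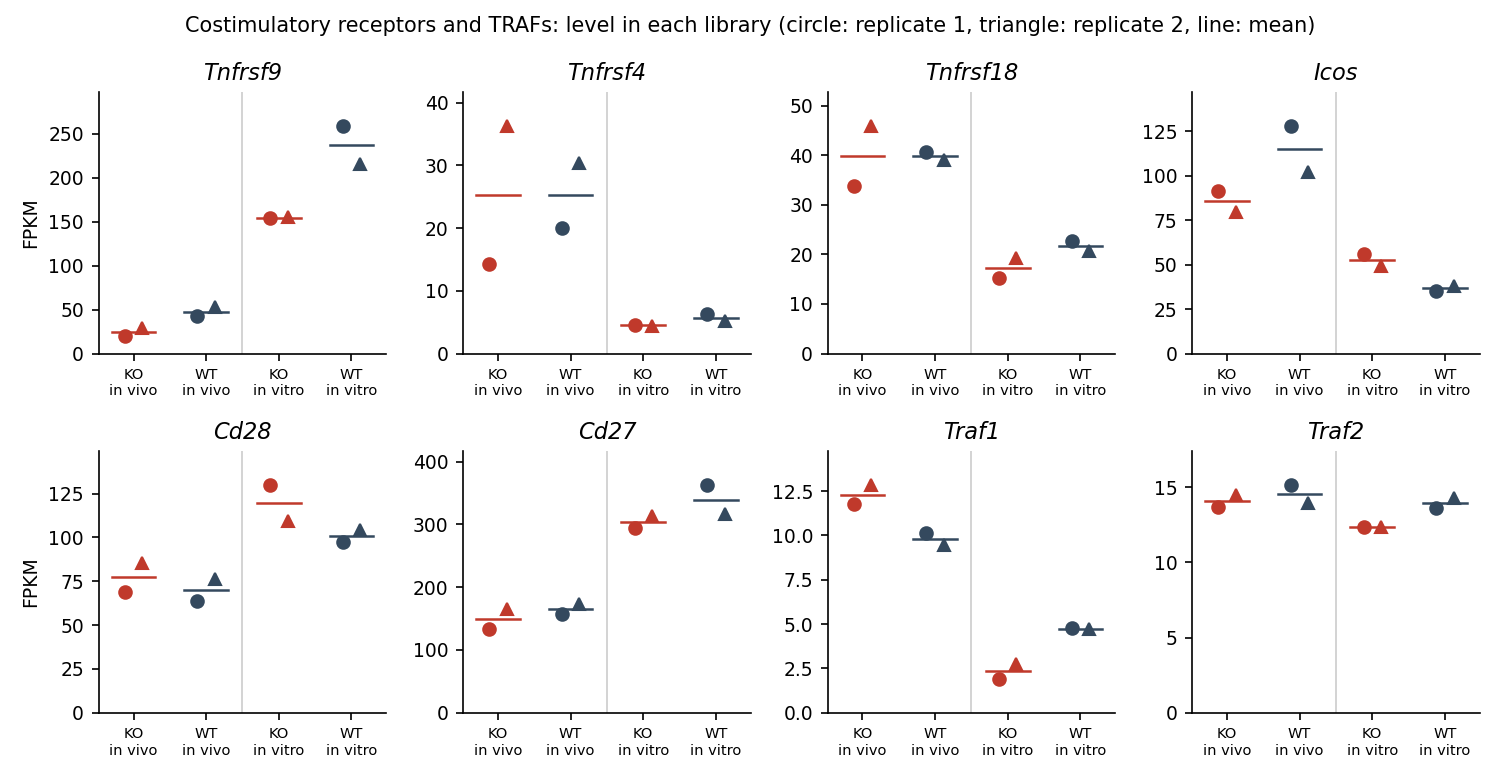
FPKM of each of the 8 genes (vertical axes, each from 0) in the 8 libraries, grouped along the horizontal axis as KO-labelled and WT-labelled in vivo and then in vitro. Circles are replicate 1, triangles replicate 2 and lines the group means. Tnfrsf9 was lower in both KO-labelled libraries than in both WT-labelled ones in each system, at 19.6 and 29.2 against 42.3 and 53.2 FPKM in vivo.

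Loss of BCL6 is the question that both comparisons address, first in agonist-selected cells of the animal and then in stimulated double-positive cells. In vitro 3 of the 8 genes changed: Traf1 and Tnfrsf9 fell and Icos rose. That is 37.5% of the 8, against 37.8% of all 9658 genes tested there (1940 rose and 1709 fell by edgeR's quasi-likelihood test at a Benjamini-Hochberg adjusted p under 0.05, or 1924 and 1116 with limma on rescaled values, log2(TPM + 1)), so the share of the 8 was near the background and is no result about them. An unadjusted p under 0.05 was reached in vitro by 5 of the 8 and by 47.1% of all genes. In vivo none of the 8 passed by edgeR, against 1.10% of 10227 genes tested (0.284% rose and 0.821% fell), while 3 of the 8 (Tnfrsf9, Traf1 and Icos) had an unadjusted p under 0.05, against 14.1% of all genes. DESeq2 called 1 of the 8 in vivo (Tnfrsf9), against 4.94% of all genes. Limma on log2(FPKM + 1) called 0 of the 8, and 68 of the 10227 genes. All 8 had passed the expression filter in both systems, each in libraries of both labels. The FPKM ranges of the 2 labels did not overlap for 8 of the 8 genes in vitro, against 71.1% of all genes, and for 3 of the 8 in vivo, against 43.4%. The effect of the label differed between systems for 2 of the 8, Traf1 and Icos, against 16.4% of 9364 genes tested in both.

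Tnfrsf9 encodes CD137, a receptor induced by antigen receptor signals that recruits TRAF1 and TRAF2. It was lower in KO-labelled cells in both systems. In vivo it had 19.6 and 29.2 FPKM in KO-labelled libraries against 42.3 and 53.2 FPKM in WT-labelled ones, and both KO-labelled values lay below both WT-labelled values. The log2 fold change was -0.98 (SE 0.21, n = 2 per group), which did not pass over all genes (edgeR adjusted p = 0.105). It passed with DESeq2 (adjusted p = 0.000221) and with all 8 libraries in one edgeR fit (adjusted p = 0.0117). With limma on log2(FPKM + 1) it did not (adjusted p = 0.105). Without KO replicate 1 or 2 the log2 fold change was -0.72 or -1.28, and without WT replicate 1 or 2 it was -1.13 or -0.80. In vitro it had 154 and 155 FPKM in KO-labelled libraries against 259 and 216 FPKM in WT-labelled ones. The 2 KO-labelled libraries were nearly equal and lay well below the WT-labelled ones, which differed more from each other. There Tnfrsf9 fell by 0.59 on the log2 scale (SE 0.10; edgeR adjusted p = 0.00121), and the WT-labelled level was 1.51-fold that of KO-labelled cells. The effects in the 2 systems were not shown to differ (in vivo minus in vitro -0.36, SE 0.24; edgeR adjusted p = 0.327).

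RefSeq gives Tnfrsf9 (chromosome 4, 150914562 to 150946102 on the plus strand of mm10) a pair of starts with an entry in the promoter table, at 150920155 and 150927999. The sequences shown are the 250 bases before these starts and before that of Traf1, the 2 genes of the set that fell in vitro, 5′ to 3′ on the strand of the gene, with capitals marking matches to any of 3 motifs searched on both strands: the NF-kB consensus, AP-1 as TGANTCA and BCL6 as TTCCNNGAA. They come from RefSeq on GRCm38.p6, at chr4:150919905-150920154 and chr4:150927749-150927998 on the plus strand and at chr2:34961773-34962022 on the minus strand.
Tnfrsf9 first start: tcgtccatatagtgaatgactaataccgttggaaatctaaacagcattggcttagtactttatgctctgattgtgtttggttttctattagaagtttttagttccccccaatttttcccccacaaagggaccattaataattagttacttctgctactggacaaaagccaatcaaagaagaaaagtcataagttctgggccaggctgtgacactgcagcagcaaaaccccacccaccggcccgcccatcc
Tnfrsf9 second start: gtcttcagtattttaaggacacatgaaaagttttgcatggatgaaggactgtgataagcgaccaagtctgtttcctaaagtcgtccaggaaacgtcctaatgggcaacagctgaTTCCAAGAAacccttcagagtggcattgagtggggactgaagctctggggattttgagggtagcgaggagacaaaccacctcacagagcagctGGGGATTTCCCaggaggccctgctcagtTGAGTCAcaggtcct
Traf1: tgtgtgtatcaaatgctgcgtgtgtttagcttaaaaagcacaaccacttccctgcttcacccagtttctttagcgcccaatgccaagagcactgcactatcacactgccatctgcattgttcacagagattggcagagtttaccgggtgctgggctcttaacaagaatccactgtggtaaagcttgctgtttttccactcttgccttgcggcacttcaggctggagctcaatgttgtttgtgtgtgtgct
Before the second start of Tnfrsf9 an AP-1 match lay 15 to 9 bases upstream, 2 overlapping NF-kB matches lay 43 to 33 bases upstream, and a BCL6 match lay 136 to 128 bases upstream. The windows before the first start of Tnfrsf9 and before Traf1 held none of these letters, and neither did those of Traf2, Tnfrsf4, Tnfrsf18 and Cd27; Icos and Cd28 were not searched. Of 32817 windows of the same length in the table, 7.25% held the NF-kB consensus, 6.75% the AP-1 motif and 4.06% the BCL6 motif. A match is a description of the sequence, and gene-level counts do not tell which start was used.

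Traf1 encodes an adaptor that lacks the RING domain of other TRAFs, joins TRAF2 at CD137 and is itself a known NF-kB target gene. The sign of its difference was positive in vivo and negative in vitro. In vivo it had 11.8 and 12.8 FPKM in KO-labelled libraries against 10.1 and 9.44 FPKM in WT-labelled ones, with no overlap. The log2 fold change in vivo was 0.32 (SE 0.10), which did not pass (edgeR adjusted p = 0.190). In vitro it had 1.92 and 2.77 FPKM in KO-labelled libraries against 4.77 and 4.72 FPKM in WT-labelled ones. The WT-labelled pair was nearly equal and stood above both KO-labelled libraries. Traf1 fell there by 0.98 on the log2 scale (SE 0.14; edgeR adjusted p = 0.000355), the largest change of the 8 genes in vitro. The effect of the label was 1.33 log2 units higher in vivo than in vitro (SE 0.20; edgeR adjusted p = 0.0022 over 9364 genes), and 6.57% of those genes had an effect called higher in vivo.

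Traf2 encodes the adaptor that carries the signal of most receptors of the family to NF-kB and JNK. Its level differed little between groups. Its FPKM in vivo was 13.7 and 14.4 in KO-labelled libraries against 15.1 and 14.0 in WT-labelled ones, and the ranges overlapped. In vitro it was 12.4 and 12.3 FPKM in KO-labelled libraries against 13.6 and 14.3 FPKM in WT-labelled ones. Neither change passed, with log2 fold changes of -0.06 (95% interval -0.29 to 0.18) in vivo and -0.15 (-0.33 to 0.04) in vitro. The group means of Traf2 spanned 12.4 to 14.5 FPKM over all 4 groups, while those of Traf1 spanned 2.35 to 12.3 FPKM. These spans cross systems that were scaled separately and were not tested.

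**Figure D2:**
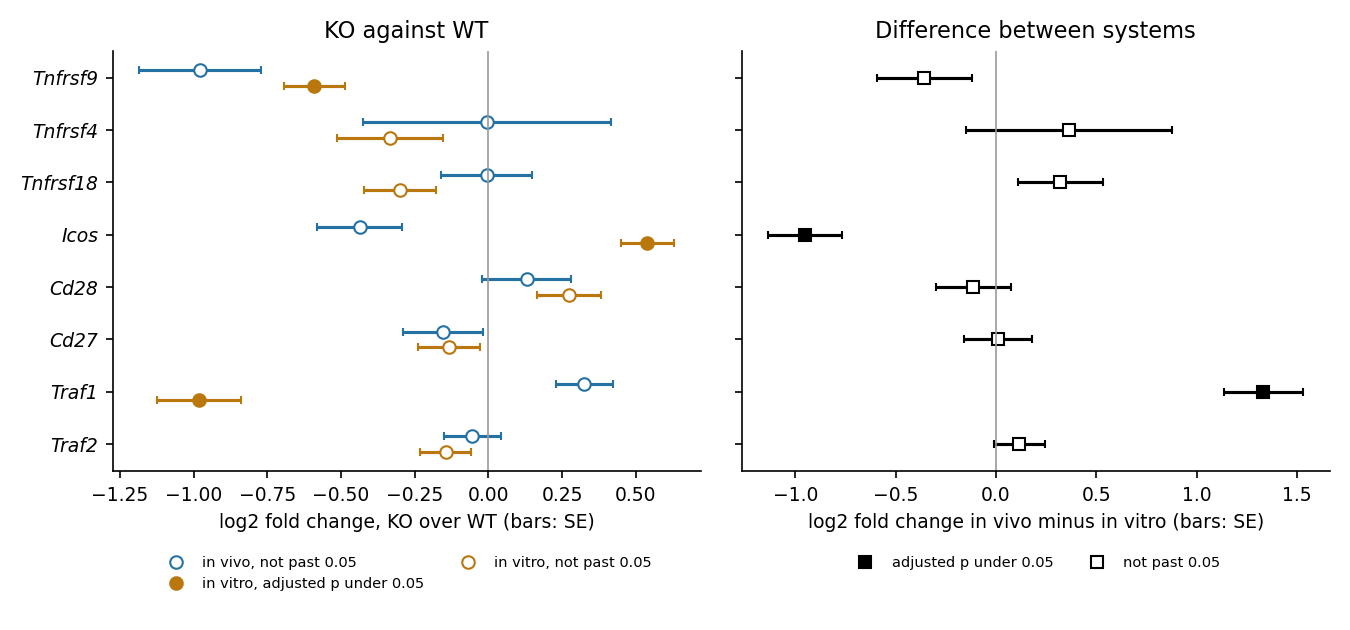
Left, log2 fold change of KO-labelled over WT-labelled libraries (horizontal axis) for each of the 8 genes (vertical axis), in vivo above in vitro. Right, the in vivo minus the in vitro log2 fold change. Bars are SE and filled symbols passed an adjusted p of 0.05: Tnfrsf9, Icos and Traf1 in vitro on the left, and Icos (-0.95) and Traf1 (1.33) on the right.

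Icos encodes the inducible costimulator, whose tail binds phosphoinositide 3-kinase more strongly than that of CD28. The sign of its difference was negative in vivo and positive in vitro. In vivo it had 91.7 and 79.4 FPKM in KO-labelled libraries against 128 and 102 FPKM in WT-labelled ones, and the KO-labelled pair was the lower. The log2 fold change was -0.44 (SE 0.14), which did not pass (edgeR adjusted p = 0.238), and it was -0.26 without WT replicate 1. In vitro it had 55.7 and 49.1 FPKM in KO-labelled libraries against 35.3 and 38.2 FPKM in WT-labelled ones, with the KO-labelled pair above. Icos rose there by 0.54 on the log2 scale (SE 0.09; edgeR adjusted p = 0.000885). The effect was 0.95 log2 units lower in vivo than in vitro (-0.95, SE 0.18; edgeR adjusted p = 0.00709), and 9.81% of the 9364 genes had an effect called lower in vivo. Taking each system as a whole, every in vivo library had more Icos FPKM than every in vitro library, but the systems were scaled separately and this was not tested.

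Cd28 encodes the receptor for CD80 and CD86 and was engaged by antibody in the cultures. In vivo it had 68.9 and 85.6 FPKM in KO-labelled libraries against 64.0 and 76.4 FPKM in WT-labelled ones, and the ranges overlapped (log2 fold change 0.13, 95% interval -0.24 to 0.49). In vitro it had 130 and 109 FPKM in KO-labelled libraries against 97.3 and 104 FPKM in WT-labelled ones. Its log2 fold change in vitro of 0.27 (SE 0.11) did not pass (edgeR adjusted p = 0.0708), but did with DESeq2 (adjusted p = 0.0282) and without KO replicate 2 (edgeR adjusted p = 0.0295). Without KO replicate 1 it was 0.14 (edgeR adjusted p = 0.444). Cd28 (chromosome 1, 60716800 to 60773359) and Icos (60977927 to 61000320) lie 204.6 kb apart in mm10 both on the plus strand, with 1 protein-coding gene starting between them. The effects of the label on Cd28 in the 2 systems were not shown to differ (-0.11, SE 0.19; edgeR adjusted p = 0.715).

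Tnfrsf4 encodes OX40, which is induced after activation and abundant on regulatory T cells. In vivo it had 14.2 and 36.3 FPKM in KO-labelled libraries against 20.0 and 30.4 FPKM in WT-labelled ones. The 2 libraries numbered 2 were the high ones under both labels, and the KO-labelled pair enclosed the WT-labelled pair. The log2 fold change was -0.01 with a 95% interval of -1.03 to 1.01, the widest of the set, so it leaves room for a change of that size either way. Leaving out KO replicate 1, KO replicate 2 or WT replicate 2 moved it to 0.51, -0.82 or 0.33. In vitro, at far lower FPKM in separately scaled libraries, Tnfrsf4 had 4.58 and 4.39 FPKM in KO-labelled libraries against 6.29 and 5.16 FPKM in WT-labelled ones. The log2 fold change was -0.33 (SE 0.18, edgeR adjusted p = 0.169), and it was -0.18 without WT replicate 1.

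Tnfrsf18 encodes GITR, whose gene lies 9.6 kb downstream of Tnfrsf4 with no protein-coding gene starting in between (Tnfrsf4 at 156013843 to 156016612 and Tnfrsf18 at 156026164 to 156028895 on chromosome 4, plus strand, mm10). It had 33.9 and 45.9 FPKM in KO-labelled libraries in vivo against 40.6 and 39.1 FPKM in WT-labelled ones. Here too KO replicate 2 was the highest and KO replicate 1 the lowest, on either side of the WT-labelled pair (log2 fold change -0.01, 95% interval -0.38 to 0.37). In vitro it had 15.2 and 19.3 FPKM in KO-labelled libraries against 22.6 and 20.7 FPKM in WT-labelled ones, a log2 fold change of -0.30 (SE 0.12) that did not pass (edgeR adjusted p = 0.0751). It did pass without KO replicate 2 (edgeR adjusted p = 0.00309) and with limma on log2(FPKM + 1) (adjusted p = 0.0444). Without KO replicate 1 it was -0.14 (edgeR adjusted p = 0.429). The annotation places the antisense gene Gm16008 over 414 exonic bases of Tnfrsf18, and without a stated strand setting reads from the pair cannot be told apart.

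Cd27 encodes the receptor for CD70, present on thymocytes before and after selection. In vivo it had 134 and 166 FPKM in KO-labelled libraries against 157 and 174 FPKM in WT-labelled ones. In vitro it had 294 and 314 FPKM in KO-labelled libraries against 362 and 317 FPKM in WT-labelled ones. The ranges overlapped in vivo and were barely apart in vitro, and neither change passed: the log2 fold changes were -0.15 (95% interval -0.48 to 0.18) and -0.13 (-0.36 to 0.10). Leaving out 1 library moved them to between -0.30 (without KO replicate 2) and -0.012 (without KO replicate 1) in vivo, and to between -0.22 and -0.037 (without WT replicate 2 or 1) in vitro.

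Markers of other cells also differed between the in vivo libraries. Foxp3, the defining factor of regulatory T cells, had 3.36 and 14.1 FPKM in KO-labelled libraries against 8.12 and 17.3 FPKM in WT-labelled ones, and Ctla4 had 3.32 and 8.02 against 4.92 and 8.72 FPKM. Replicate 2 was the higher library under both labels for 8 of the 10 regulatory T cell markers (all but Capg and Nrp1). So it was for the coreceptor genes Cd4, Cd8a and Cd8b1 and for 4 of the 8 T cell receptor complex and kinase genes. Among myeloid markers it was so for 0 of 10, among those of NK and innate-like T cells for 0 of 10, and among B cell markers for 0 of 8. The counts were 0 of 8 for double-positive thymocyte, 0 of 2 for gamma delta T, 1 of 4 for erythroid and 2 of 4 for stroma markers. Of the 8 genes described here it was so for 4, Tnfrsf4, Tnfrsf9, Cd28 and Cd27. The share over all genes was not counted, and deviations of same-numbered libraries in vivo correlated at 0.460 over all genes tested. The log2 fold change was negative for 7 of the 10 markers and positive for Capg (0.30), Nrp1 (0.41) and Il2ra (0.33), none of the 3 past the threshold. Ikzf2 (Helios) was lower in both KO-labelled libraries, as Tnfrsf9 was, at 28.0 and 32.7 FPKM against 48.9 and 82.5 FPKM in WT-labelled ones (log2 fold change -1.12; edgeR adjusted p = 0.117). None of the 10 regulatory T cell markers was at 0 in any library, and they summed to 182.83 and 197.57 FPKM in KO-labelled libraries against 210.06 and 225.27 FPKM in WT-labelled ones in vivo. Capg made up much of these sums, at 130 and 116 FPKM in KO-labelled libraries against 125 and 74.5 FPKM in WT-labelled ones. Of the 10, only Itgb8, an integrin chain, passed in vivo, at 0.882 and 1.01 FPKM in KO-labelled libraries against 3.57 and 7.38 FPKM in WT-labelled ones (log2 fold change -2.54, SE 0.35; edgeR adjusted p = 0.0393). In vitro Foxp3 was at 0.296 and 0.342 FPKM in KO-labelled libraries against 0.373 and 0.468 FPKM in WT-labelled ones, under the expression filter. The part of these cells in the levels of Tnfrsf4, Tnfrsf18, Tnfrsf9 and Icos was not tested, and in bulk samples fewer cells of a type and less RNA per cell cannot be told apart. Myeloid markers also differed between libraries in vivo, summing to 377.39 and 211.52 FPKM in KO-labelled libraries against 193.95 and 120.55 FPKM in WT-labelled ones. The largest part of each sum was Fcer1g, at 187 and 146 against 110 and 64.5 FPKM. Lyz2, at 109 and 15.7 against 25.6 and 10.7 FPKM, was high mainly in KO replicate 1. Double-positive thymocyte markers differed too (151.63 and 94.42 against 94.98 and 79.12 FPKM), as did those of NK and innate-like T cells (1505.45 and 1433.48 against 1125.08 and 677.67 FPKM). The part of these cells was not tested either.

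**Figure D3:**
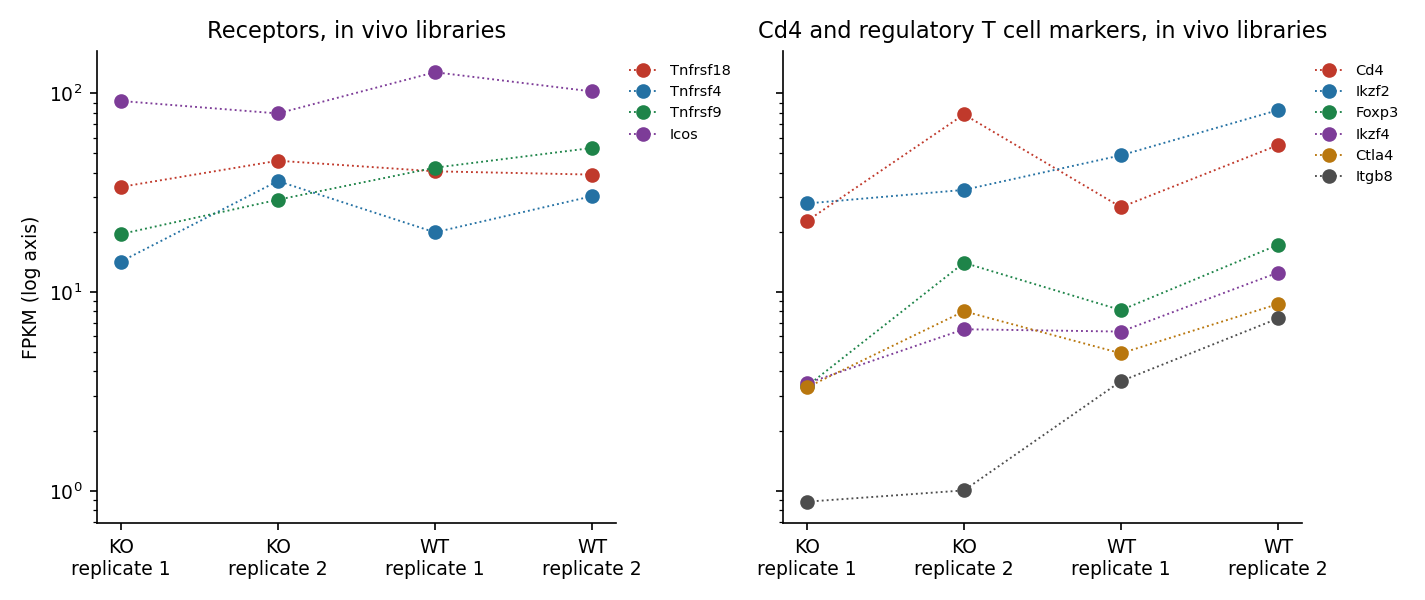
FPKM on a log axis in the 4 in vivo libraries, KO-labelled left of WT-labelled, for Tnfrsf18, Tnfrsf4, Tnfrsf9 and Icos (left) and for Cd4 and 5 regulatory T cell markers (right). Dotted lines only join the points of a gene. Tnfrsf4 (14.2 and 36.3 against 20.0 and 30.4 FPKM) and Foxp3 (3.36 and 14.1 against 8.12 and 17.3 FPKM) were higher in replicate 2 under both labels, while Tnfrsf9 was lower in both KO-labelled libraries.

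The rest of the pathway was described from lists chosen by role, with earlier results of these data known. Their counts are therefore descriptions, and setting them beside the shares of all genes is no independent test. By edgeR 0 of the 106 genes tested in the 8 pathway lists passed in vivo, against 1.10% of all genes. Of the 106, 19 had an unadjusted p under 0.05 by edgeR, against 14.1% of all genes. DESeq2 called 2 higher and 6 lower in vivo, against 2.54% and 2.4% of all genes, and limma on log2(FPKM + 1) called 0. The counts that follow are from the in vitro comparison, in which 20.1% of all genes rose and 17.7% fell with a median log2 fold change of -0.003. Of 12 other receptors of the tumour necrosis factor receptor family tested, 5 rose and 1 fell (median 0.22), and 3 rose and 1 fell with DESeq2. Tnfrsf25, the death receptor DR3, rose by 1.65 on the log2 scale, with 4.26 and 6.68 FPKM in KO-labelled libraries against 1.63 and 1.96 FPKM in WT-labelled ones. Tnfrsf26 rose by 0.78 and Relt by 0.60, while Tnfrsf13c, the BAFF receptor, fell by 0.94. Tnfrsf14, the herpesvirus entry mediator, rose by 1.12 (SE 0.33; edgeR adjusted p = 0.0190), but WT replicate 1 stood apart, with 164 and 176 FPKM in KO-labelled libraries against 41.2 and 118 FPKM in WT-labelled ones. Without WT replicate 1 or 2 the log2 fold change was 0.54 or 2.07, and with DESeq2 it did not pass (adjusted p = 0.231).

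Of the 5 other TRAFs, Traf5, which binds OX40 and CD27, rose by 0.81 and Traf4 by 0.24, Traf3, a brake on the alternative NF-kB pathway, fell by 0.25, and Traf6 and Traf7 did not pass. With DESeq2, or without WT replicate 1, the call on Traf5 alone remained, and without KO replicate 2 that on Traf3 alone. Among 20 tested partners and regulators of TRAFs 3 rose and 3 fell (median 0.09), and 3 rose and 1 fell without KO replicate 1. The kinase Ikbke rose by 0.72, and Traf3ip3 and Traf3ip2 rose by 0.55 and 0.64. The kinase of the alternative pathway Map3k14 fell by 0.38 and the stress kinase Map3k5 by 0.34. Birc3, a TRAF-bound ubiquitin ligase named after its value was seen, also fell (-0.30, SE 0.09).

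The NF-kB list had 14 genes tested, of which 9 fell and 1 rose, with a median of -0.39; without WT replicate 1 or KO replicate 1, 6 fell and 1 rose. In each case the 1 that rose was Bcl3, named after its value was seen, which passed the filter only through the KO-labelled libraries (1.30 and 1.81 FPKM against 0.757 and 0.742 FPKM in WT-labelled ones) and was not called without KO replicate 2. Rel, the subunit c-Rel, had 13.4 and 12.4 FPKM in KO-labelled libraries against 22.7 and 22.5 FPKM in WT-labelled ones (log2 fold change -0.78, SE 0.08; edgeR adjusted p = 3.65e-05). Nfkb2 fell by 0.83, Relb by 0.59, the inhibitor Nfkbie by 0.59 and Nfkb1 by 0.45. The effect on Rel, Nfkb2 and Nfkbie was higher in vivo than in vitro, by 0.85, 0.78 and 0.61 log2 units (edgeR adjusted p = 0.0236, 0.0208 and 0.0207), as was that on Traf1. That on Bcl3 was lower in vivo (-1.51, edgeR adjusted p = 0.00282). The effects on Relb and Nfkb1 were not shown to differ (edgeR adjusted p = 0.290 and 0.278). Of the 9364 genes tested in both systems, 6.57% had an effect called higher in vivo and 9.81% lower. On other lists the effect was called lower in vivo for Tnfrsf25 (-2.47), Cd7 (-1.92), Ltb (-1.64) and Grap2 (-0.98), among others, and higher for Map3k5 (0.60).

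CD28 and ICOS signalling genes ran the other way: 12 of 20 tested rose and 0 fell (median 0.30), by edgeR and by DESeq2, and 8 rose and 1 fell without WT replicate 1. Limma, run on log2(FPKM + 1), called 10 higher and 0 lower, while 14 of the 20 had an unadjusted p under 0.05 by edgeR. The adaptor Grap2 (GADS) had 45.0 and 43.7 FPKM in KO-labelled libraries against 16.5 and 21.5 FPKM in WT-labelled ones, a rise of 1.25 on the log2 scale (SE 0.11; edgeR adjusted p = 1.52e-05). Subunits of phosphoinositide 3-kinase rose as well, Pik3r5 by 1.12, Pik3r1 by 0.79 and Pik3cd by 0.76, and protein kinase C theta (Prkcq) by 0.47. Of 9 other immunoglobulin family receptors tested, 4 rose and 1 fell (median 0.16), and 2 rose and 1 fell without KO replicate 1. Cd7 rose by 2.06, Cd84 by 0.64, Cd226 by 0.57 and Cd2 by 0.29, and Crtam, the class I restricted T cell associated molecule, fell by 1.12.

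Of 8 ligand genes tested 4 rose and 1 fell (median 0.56). Ltb, a chain of lymphotoxin, rose by 1.40, with 43.8 and 53.3 FPKM in KO-labelled libraries against 14.9 and 23.0 FPKM in WT-labelled ones. Tnfsf11 (RANKL) rose by 0.94 and Tnfsf10 (TRAIL) by 0.69, while Tnfsf8, the CD30 ligand, fell by 0.75. Tnfsf4, the ligand of OX40, rose by 2.21 from a low level, and passed the filter only through the KO-labelled libraries, at 1.53 and 1.10 FPKM against 0.204 and 0.399 FPKM in WT-labelled ones. Among 7 RNA-binding proteins of the kind that degrade Icos and Tnfrsf4 transcripts, Zc3h12d, Zc3h12a (regnase-1) and Zfp36l1 fell by 0.75, 0.54 and 0.49, Zfp36l2 rose by 0.67, and Rc3h1 and Rc3h2 (roquin-1 and roquin-2), at -0.02 and 0.11, and Zfp36, at -0.10, did not pass.

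**Figure D4:**
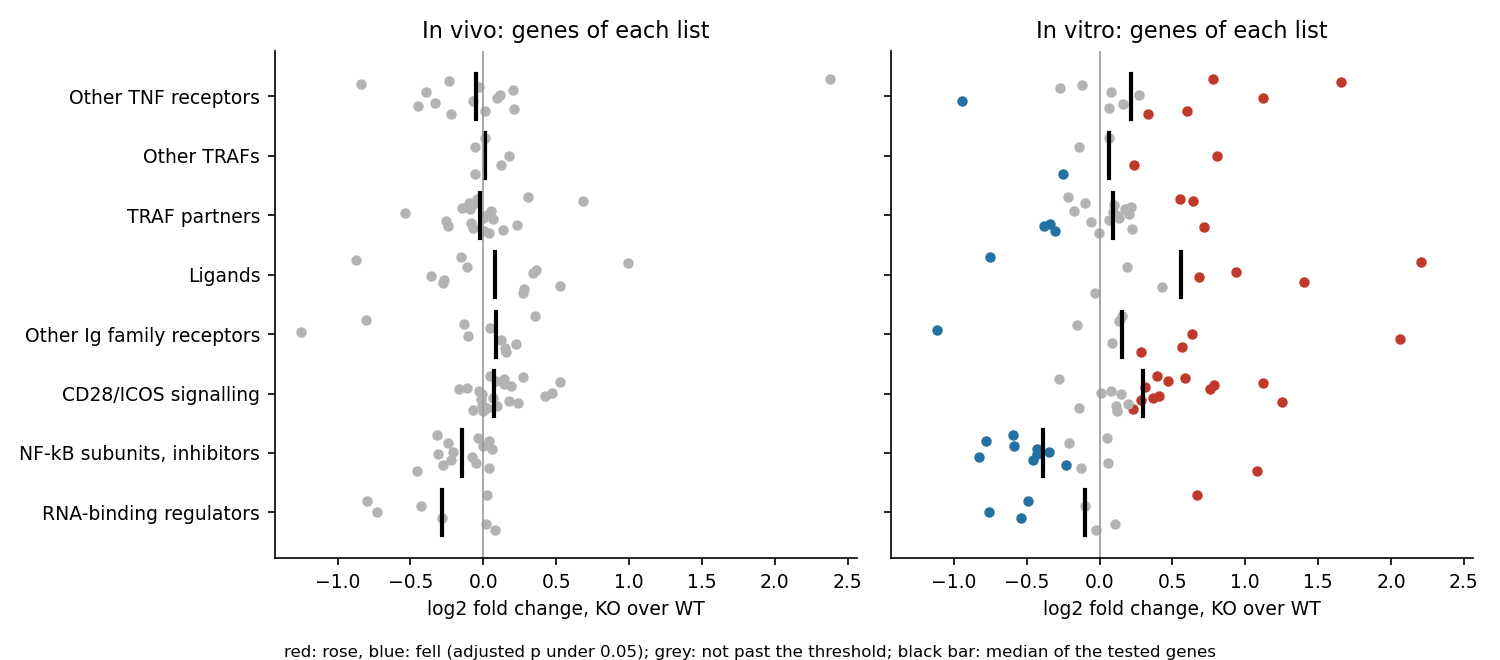
Log2 fold change of KO-labelled over WT-labelled libraries (horizontal axis) for the tested genes of 8 lists (vertical axis), in vivo on the left and in vitro on the right. Red points rose, blue points fell, grey points did not pass and black bars are medians. No point is coloured in vivo; in vitro the NF-kB list had 9 blue points and 1 red, and the CD28 and ICOS signalling list 12 red points.

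Likeness of pattern was measured as Pearson's r over the 8 libraries of log2 CPM (counts scaled to library size) after subtracting the mean of each system, as a description over libraries that share their system's centre. Closest to Tnfrsf9 were Dgkz, a diacylglycerol kinase (r = 0.986), and Zfp36l1 (r = 0.980). Dgkz had 130 and 157 FPKM in KO-labelled libraries against 181 and 197 FPKM in WT-labelled ones in vivo, and 270 and 286 against 351 and 310 FPKM in vitro. Dynll2 was among the genes closest to Traf1 (0.983), those closest to Icos were Rtl6 (0.993) and Zkscan14 (0.983), and those closest to Cd28 were Fcho2 (0.994) and Gapvd1 (0.992). For Tnfrsf4 they were Dusp10 and Rexo4 (both 0.969), for Tnfrsf18 Lzic (0.973) and Tsnax (0.972), for Cd27 Erf (0.973) and Yaf2 (0.969), and for Traf2 Vcpkmt (0.991) and Ap3s2 (0.981). Within the set the highest r was that of Tnfrsf4 with Cd27 (0.852) and the lowest that of Icos with Traf1 (-0.838).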

How the data were processed

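RNA sequencing of 8 libraries was analysed; titles gave the groups and replicate numbers. Each deposited table holds whole-number counts per gene and FPKM per gene, both made by the authors, per the file headers. Named in the submitters' processing notes are build mm10 and, with no role stated, DESeq2, RSEM, Subread, featureCounts, Bowtie2 and Trim Galore 0.4.4. Annotation and strand setting were not found there. Within a system the ratio of FPKM to count between libraries was constant to within 0.1% for all genes compared. The lowest mean count of any row was 5.

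Genes reaching FPKM 1 in 2 or more libraries of a system were tested with edgeR 4.0.16 (R 4.3.3; quasi-likelihood, TMM, two-sided) on each system's 4 libraries, and the difference between systems over all 8. Calls were made at 0.05 after Benjamini-Hochberg adjustment over all genes tested. SE was taken as the size of the log2 fold change divided by the root of F. Alternatives were DESeq2 1.42.0, limma 3.58.1, other scalings and filters, a block for replicate number, and fits without each library. The genes and lists were chosen with earlier results of these data known. Named from each list are up to 5 genes past the threshold with the smallest adjusted p, or else the 2 most abundant. Fcer1g, Blk and Sox13 were also picked in this way, Blk and Sox13 being named only here. Their log2 fold changes in vivo were 0.93, -1.08 and 1.13, none past the threshold by edgeR. Foxp3, Ctla4, Ikzf2, Cd3g, Cd5, Cd68, Zap70, Birc3, Bcl3, Gzmb, Rc3h1, Rc3h2, Zfp36, Traf6 and Traf7 lie outside this rule and were named after their values were seen, and a gene close in pattern to Traf1 is not reported here. Replicates differed by more than counting noise (chi-square per degree of freedom 9.75 to 20.0). The procedure was tested on simulated data. Positions are from GENCODE M21.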

Additional observations from a re-analysis of the deposited data

Results flagged for a closer look

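The effect of the KO label on Traf1 differed between systems by 1.33 log2 units, in vivo minus in vitro (SE 0.20; edgeR adjusted p = 0.0022), with all KO-labelled libraries above the WT-labelled ones in vivo and below them in vitro. For Icos the difference was -0.95 log2 units (SE 0.18; edgeR adjusted p = 0.00709), with KO-labelled libraries below the WT-labelled ones in vivo and above them in vitro. Both were picked out by the test of the difference between the 2 systems, which also differ in stimulation, sorted cells and sequencing provider; these cannot be told apart here. Groups of 2 are too small to test for outlying libraries.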

How the results depend on the processing

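Of the 8 genes, the number past the threshold in vitro was 3 by edgeR and 2 to 4 under the other tools, scalings and filters. The 2 came with a filter at FPKM 5, which left Traf1 untested. Over all genes tested in vitro the count of 3649 was 3129 with DESeq2, 4122 without the filter and 2889 with the filter at FPKM 5. Without KO replicate 1 or 2 in vitro the log2 fold change was -0.14 or -0.49 for Tnfrsf18 and 0.14 or 0.39 for Cd28. In vivo the number of the 8 past the threshold was 0 by edgeR. Under the other tools, scalings and filters it was also 0, but 1 with DESeq2 and 1 with all 8 libraries in the fit (Tnfrsf9 in each). Fits without 1 library are not in these counts, in vitro or in vivo, and some of them changed the number. Leaving out 1 library moved Tnfrsf9 in vivo to between -1.28 and -0.72. The number whose effect differed between systems was 2 under every alternative run, leaving out each library included. The labels do not say that equal replicate numbers pair libraries. Deviations of same-numbered libraries correlated at -0.305 in vitro and 0.460 in vivo, and with the replicate number as a block 3 of the 8 passed in vitro, 2 in vivo (Tnfrsf9 and Icos) and 2 for the difference. Single-gene refits that changed direction were all of values that had not passed. In vivo, leaving out 1 library moved Tnfrsf4 to between -0.82 and 0.51, Tnfrsf18 to between -0.23 and 0.19, Cd28 to between -0.022 and 0.27 and Traf2 to between -0.11 and 0.0050. Tnfrsf4 was also 0.0019 without the filter and 0.021 with all 8 libraries, where Tnfrsf18 was 0.015. The difference between systems ranged from -0.46 to 0.88 for Tnfrsf4, -0.27 to 0.029 for Cd28 and -0.15 to 0.15 for Cd27 when 1 library was left out. Of 327 refits of single genes 300 kept direction and side of the threshold, 11 newly passed, 16 changed direction and 0 lost a call. The cause was not tested.

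Over all genes tested in vivo the count of 113 became 505 with DESeq2, 379 with all 8 libraries, 68, 75 and 45 with limma on log2(FPKM + 1), log2(FPKM + 0.1) and log2(TPM + 1), 52 with a filter at FPKM 5, 1078 with the block, and 7 to 279 without 1 library (191 and 7 without WT replicate 1 or 2, 21 and 279 without KO replicate 1 or 2). The count for the difference, 1534, was 533 to 1816 without 1 library, lowest without WT replicate 1 in vitro.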

Other observations

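Genes on lists that mark other cells also passed in vitro. Of 8 tested regulatory T cell markers 3 rose and 4 fell, against 20.1% and 17.7% of all genes, and 2 rose and 4 fell with DESeq2, by which Ctla4 was not called. Capg and Nrp1 rose by 2.03 and 1.73 on the log2 scale, while Il2ra, Itgb8 and Lrrc32 fell by 1.98, 1.59 and 1.50. Of the 3 coreceptor genes, Cd4 and Cd8b1 rose by 0.72 and 0.76 and Cd8a fell by 0.42. The 2 tested B cell markers, Cd79a and Cd79b, rose by 0.98 and 0.90 (Cd79b alone with DESeq2, or without WT replicate 1 or KO replicate 2), and the 2 tested stroma markers, Pecam1 and Epcam, by 0.87 and 0.74, genes that T cells can also express. Nrp1 and Cd79a passed the filter only through KO-labelled libraries, as did Arpp21, and Lrrc32 only through WT-labelled ones. Among 5 tested double-positive thymocyte markers Cd24a and Dntt fell by 0.84 and 1.01 and Arpp21 rose by 1.11. Of the 8 T cell receptor complex and kinase genes 4 rose and 1 fell, with Cd247 at 0.70 (SE 0.09). Nkg7 fell by 1.50, and neither myeloid (Cst3, -0.08; Cd68, 0.09) nor erythroid genes (Hbb-bs, 0.06; Hba-a1, 0.72) passed. In vivo, among B cell, myeloid, NK and innate-like T, gamma delta T, erythroid, stroma and double-positive markers, 0 of 33 tested genes passed by edgeR, against 1.10% of all genes, and 17 had an unadjusted p under 0.05, against 14.1%. DESeq2 called 9 of the 33, all higher in KO-labelled libraries, against 4.94% of all genes, and limma on log2(FPKM + 1) called 0. There Gzmb, a cytotoxic granule protease whose naming was decided after its values were seen, had 530 and 561 FPKM in KO-labelled libraries against 286 and 155 FPKM in WT-labelled ones (log2 fold change 1.30; edgeR adjusted p = 0.103).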
